A study of Mus musculus with 10 samples.

Results

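The genes described here are 37 members of the Toll-like receptor and NF-κB pathway, taken by symbol from the 56748 genes of the deposited count table. They comprise 9 Toll-like receptors, the adaptors, kinases, NF-κB subunits and IκB proteins that carry the signal, and 7 target genes whose transcription the pathway induces. RNA-seq was done on primary adipocytes differentiated from the stromal vascular fraction (SVF, the non-adipocyte cells) of inguinal fat. Control cells carried floxed Fam20c alleles (Fam20c-flox), and KO cells carried the same floxed alleles together with Adipoq-Cre, so both groups share the floxed locus and only the KO group has Cre. There were 5 control and 5 KO libraries, and per the study's methods such cells came from male mice 6 to 8 weeks old and were differentiated for 6 to 8 days. The adiponectin promoter drives Cre in mature adipocytes, so precursors and other cells of the culture are not its target. The only treatment in the labels was adipogenic differentiation, and no Toll-like receptor ligand was named. The labels do not say whether each library came from its own mouse or culture, so p-values measure the spread between these libraries only.

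Toll-like receptors recognise microbial products and some products of injured cells. The surface receptors and most endosomal receptors pass the signal through the adaptor Myd88 to the IRAK kinases and the TAK1 complex, while Tlr3 uses the adaptor Ticam1 (TRIF). The IκB kinase complex then marks IκB proteins for destruction, which frees NF-κB dimers to enter the nucleus and to induce cytokines, adhesion molecules, acute-phase proteins and the IκB genes themselves. Adipocytes, macrophages and endothelial cells of fat all use this pathway, and saturated fatty acids and bacterial lipopolysaccharide can engage it through Tlr4. Fam20c is a secretory-pathway kinase that phosphorylates secreted proteins, and the study asked how its loss alters adipocytes and their inflammatory genes. Phosphorylation, protein amount and nuclear entry were not measured in these libraries.

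The κB site is the DNA element that NF-κB dimers bind, and promoter stretches that hold its letters are shown for 6 members, among them Nfkbia, Nfkbie, Nfkb2 and Rel, which encode NF-κB subunits or their inhibitors. The 250 bases upstream of each RefSeq start (RefSeq promoter table, GRCm38.p6) were searched on both strands for the κB consensus, a site of 10 bases. A promoter was found for 28 of the 37 members. Not searched were Ikbkb, Nfkb1, Nfkbiz, Nos2, Relb, Tab1, Tlr4, Tlr7 and Vcam1. The site was present in 8 of the 28 members (28.6%), namely Tlr2, Tlr3, Map3k7, Nfkb2, Rel, Nfkbia, Nfkbie and Nlrp3, against 1204 of 27025 genes with a promoter (4.46%). By promoter window, 10 of 39 member windows (25.6%) and 1281 of all 32851 windows (3.90%) held it. The stretches of Tlr3 and Map3k7 and further ones of Nfkb2 are not printed. Those shown run 5′ to 3′ along the gene's strand, with the bases of the match in capitals, and overlapping matches are shown as 1 run.
Nfkbia: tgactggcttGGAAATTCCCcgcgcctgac
Nfkbie: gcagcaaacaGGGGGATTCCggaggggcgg
Nfkb2: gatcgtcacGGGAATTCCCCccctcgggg
Rel: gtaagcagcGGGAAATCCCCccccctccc
Tlr2: aggacacctGGGGAATTCCCacacggagc
Nlrp3: ggcttctgcaGGGAACCCCCgggaattctg
The Nfkbia stretch lies at chr12:55492657-55492686 on the minus strand, with its match 29 to 20 bases upstream of the start. The Nfkbie stretch is at chr17:45555584-45555613 on the plus strand, 106 to 97 bases upstream. The Nfkb2 stretch is at chr19:46304689-46304717 on the plus strand, 39 to 29 bases upstream of 1 of its starts. The Rel stretch is at chr11:23771042-23771070 on the minus strand, 92 to 82 bases upstream. The Tlr2 stretch is at chr3:83841762-83841790 on the minus strand, 173 to 163 bases upstream. The Nlrp3 stretch is at chr11:59541373-59541402 on the plus strand, 186 to 177 bases upstream. A match describes the letters only and was not tested for binding. The 8 members with a match had log2 fold changes, KO over control, from -0.21 (Tlr3) to 0.11 (Nlrp3). Of these 8, 0 passed the test described next, against 1.86% of all genes tested that were lower and 0.308% that were higher.

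Counts were compared by the quasi-likelihood test of edgeR, with p adjusted by Benjamini-Hochberg over the 14270 genes with enough counts, and a gene passed at an adjusted p under 0.05. SE is the standard error of a log2 fold change. Levels are given as CPM (counts relative to the normalized library size), and fold changes as log2 of KO over control. Fam20c, the targeted gene on chromosome 5, had 8.86, 10.3, 11.9, 9.09 and 11.2 CPM in controls 1 to 5 and 6.65, 7.29, 7.11, 7.70 and 7.74 CPM in KO 1 to 5. All 5 KO libraries were lower than all controls, and transcripts of the gene remained in each. Fam20c fell by 0.49 on the log2 scale (SE 0.093, adjusted p = 0.0137), from 10.2 ± 1.29 to 7.30 ± 0.449 CPM (SD, n = 5).

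Library totals ran from 18949106 to 26237825 counts in controls and from 19883101 to 23291792 in KO. Of the 12 adipocyte markers examined 0 passed the test, and their summed level was 32584 to 33325 CPM in control and 34111 to 36149 CPM in KO libraries. Endothelial markers were lower in KO, with 15 of 18 passing the test and summed levels of 204 to 251 CPM in control and 89.9 to 130.4 CPM in KO libraries. Of 9 progenitor markers 4 were lower, with sums of 2806 to 3277 and 2406 to 2826 CPM. Of 15 macrophage markers tested 1 was lower (Cd163), with sums of 754 to 1092 and 668 to 1056 CPM. Mural (5) and mesothelial (2) markers tested gave 0 calls, while of 6 lymphocyte and 5 neutrophil markers 0 had enough counts to test and 6 were at 0 counts in every library. In such bulk libraries fewer cells of a type and less RNA per cell cannot be told apart. Control 4 and KO 1 stood apart from the other 8 libraries on the leading principal component of all genes (scores of 21.74 and 24.23, against -14.81 to 8.589). Tlr5, Icam1, Ptgs2, Nos2 and Mmp9, for which KO 1 was the highest KO library, are therefore also given without both. KO 1 was the highest KO library for other members too, among them Rela and Nfkbia, which are not given this way.

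Most members differed little between KO and control adipocytes, and 1 target gene was lower in KO. Of the 37 members 36 had enough counts to be tested. Only Vcam1 passed, and it was lower in KO: 1 of 36 members, against 1.86% of all genes tested that were lower. In the higher direction 0 of 36 members passed with edgeR, against 0.308% of all genes, and DESeq2 (0.876% of all genes) and limma voom also called 0. At an unadjusted p under 0.05, 2 members were lower (Vcam1 and Icam1, against 7.46% of all genes) and 1 was higher (Tlr5, against 4.43%). The median log2 fold change of the 36 members was -0.0023, and that of all genes tested was -0.00085. The median size of the change, without its sign, was 0.0606 for members and 0.0717 for all genes.

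**Figure D1:**
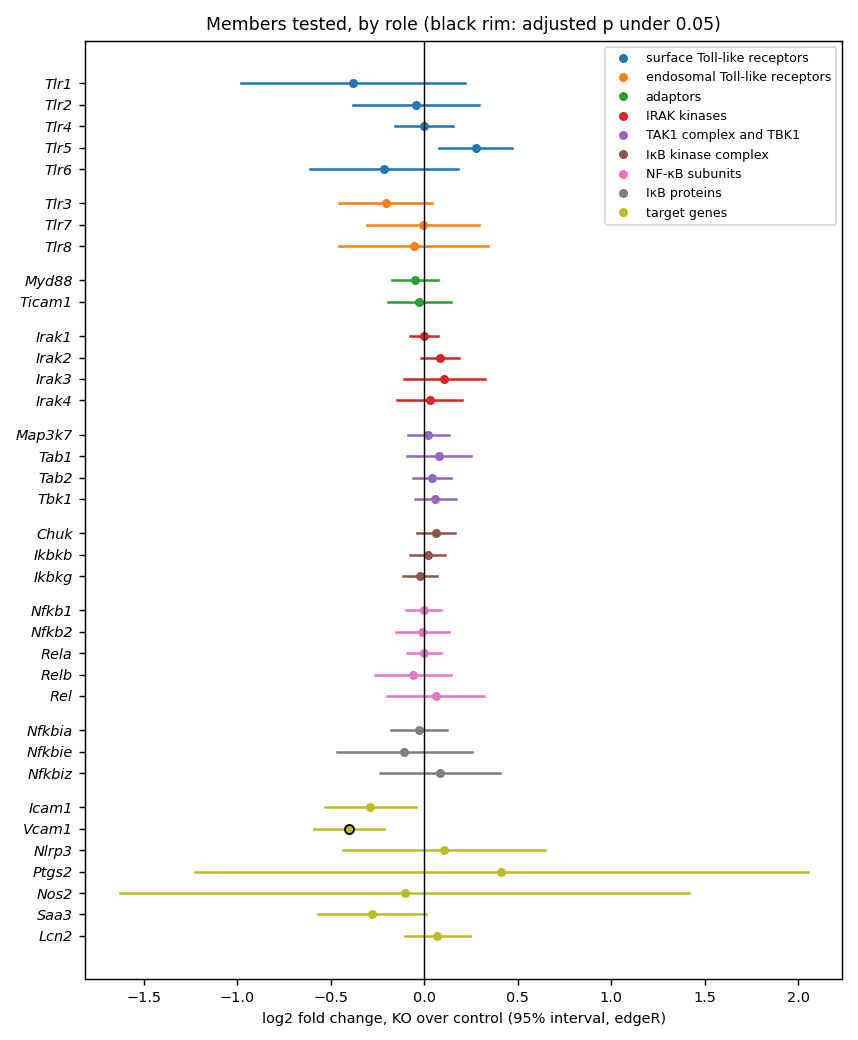
Log2 fold change of KO over control for the 36 members tested, grouped by role, with points for the edgeR estimate and bars for its 95% interval. Vcam1 (black rim, -0.40) is the member that passed, Irak1, the IκB kinase genes, Nfkb1 and Rela lie near 0 with short bars, and Ptgs2 and Nos2 have the widest intervals.

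The precision differed between roles. The 95% interval of the fold change lay within ±0.25 on the log2 scale, at most a rise of 18.9%, for 18 of the 36 members, and within ±0.5 (a rise of 41.4%) for 28. The same shares of all genes tested were 47.3% and 75.2%, against 50% and 77.8% of members. Among the 29 members tested that are not target genes, log2 fold changes ran from -0.38 (Tlr1) to 0.27 (Tlr5), 0 passed in either direction with edgeR or DESeq2, and 1 (Tlr5) had an unadjusted p under 0.05. For 27 of these 29 a change beyond ±0.5 lay outside the interval, the exceptions being Tlr1 and Tlr6, the receptors of lowest level among those tested.

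The receptors spanned a wide range of levels. Per kilobase of merged exons, Tlr4, the receptor for lipopolysaccharide, was highest in control cells at 5.39 ± 0.314 CPM per kb (SD, n = 5). It was followed by Tlr7, an endosomal sensor of single-stranded RNA, at 3.31 ± 0.582, and Tlr2, which senses bacterial lipopeptides, at 2.26 ± 0.383 CPM per kb. Next came Tlr5, the flagellin receptor, at 2.14 ± 0.215, Tlr8 at 2.14 ± 0.589 and Tlr3, which senses double-stranded RNA, at 1.85 ± 0.264 CPM per kb. Tlr6 and Tlr1, which pair with Tlr2, were at 0.429 ± 0.105 and 0.360 ± 0.100 CPM per kb, and Tlr9, the sensor of unmethylated DNA, was at 0.104 ± 0.0244 CPM per kb. Control libraries did not overlap between Tlr4 and Tlr7, between Tlr3 and Tlr6, or between Tlr1 and Tlr9, while neighbours from Tlr7 down to Tlr3, and Tlr6 and Tlr1, overlapped. In KO cells Tlr4 was again highest (5.39 ± 0.561 CPM per kb) and Tlr9 lowest (0.0808 ± 0.0197).

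**Figure D2:**
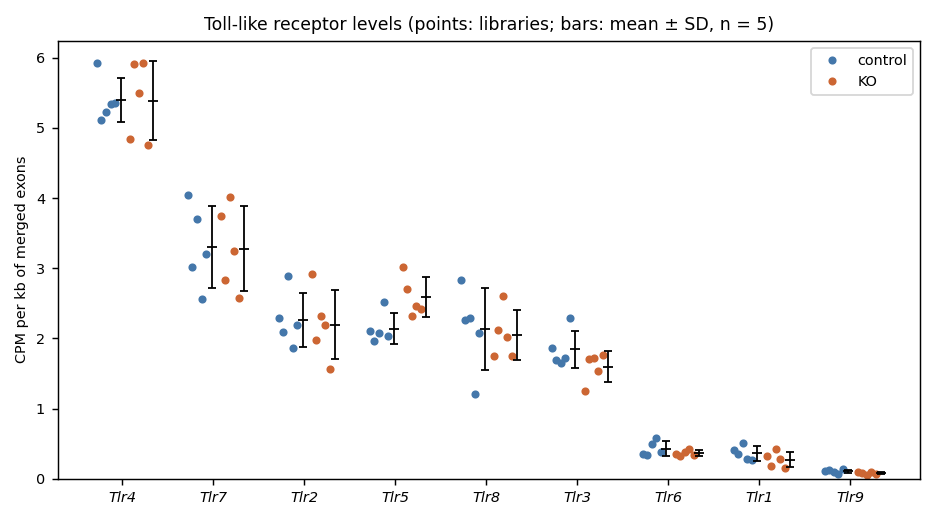
Level of the 9 Toll-like receptors, ordered by control mean, with CPM per kilobase of merged exons on the vertical axis, 1 point per library, and mean ± SD (n = 5) beside each group. Tlr4 sits highest in both groups at 5.39, and the group of Tlr6, Tlr1 and Tlr9 lies below 1.

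Tlr5 was the receptor with the clearest difference between the groups, and it did not pass the test. It lies on chromosome 1 (182954788 to 182976044, plus strand) and had 10.1, 9.41, 9.97, 12.0 and 9.76 CPM in controls 1 to 5 and 14.5, 13.0, 11.1, 11.8 and 11.6 CPM in KO 1 to 5. Only control 4 reached into the KO range, above KO 3, 4 and 5. The log2 fold change was 0.27 (SE 0.091, 95% interval 0.08 to 0.47) with an unadjusted p of 0.0102 and an adjusted p of 0.196, and the 2-sided exact permutation test over the libraries gave p = 0.0317. Without control 4 and KO 1 together the log2 fold change was 0.28 (adjusted p = 0.0612). For Tlr5 too these were the highest libraries of their groups, so leaving them out narrows the spread. The lower adjusted p is no separate support for a difference.

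Tlr4, on the plus strand of chromosome 4 (66827584 to 66930284), is the receptor for lipopolysaccharide, through which saturated fatty acids can also engage the pathway. It had 32.9, 28.4, 29.1, 29.6 and 29.8 CPM in controls 1 to 5 and 26.9, 32.8, 30.6, 32.9 and 26.5 CPM in KO 1 to 5. The groups overlapped almost entirely, and the lowest libraries were KO 5 and KO 1. On the log2 scale KO differed from control by 0.00055 (SE 0.072), with an interval from -0.15 to 0.16 (adjusted p = 0.999).

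Tlr7, the highest per length of the 4 endosomal receptors among the members, had 16.5, 12.3, 15.1, 10.4 and 13.1 CPM in controls 1 to 5 and 15.3, 11.5, 16.4, 13.2 and 10.5 CPM in KO 1 to 5. Low and high libraries occurred in both groups, with control 4, KO 2 and KO 5 at the low end and control 1 and KO 3 at the high end. KO over control gave a log2 fold change of -0.0065 (SE 0.139, adjusted p = 0.997). The summed macrophage markers were also lowest in KO 5, KO 2 and control 4 (668, 680 and 754 CPM) and highest in control 3 and KO 3 (1092 and 1056 CPM), and their part in the spread of Tlr7 was not tested. KO 5, KO 2 and control 4 were the lowest libraries for Tlr2 and Saa3 as well. The other receptors tested, Tlr1, Tlr2, Tlr3, Tlr6 and Tlr8, had log2 fold changes from -0.38 to -0.04 and adjusted p of 0.542 or more. Tlr9 had 4 to 11 counts in a library and was not tested, with 0.363 ± 0.0847 CPM in control and 0.281 ± 0.0683 CPM in KO libraries (SD, n = 5). Tlr1 and Tlr6 are neighbouring close paralogs on chromosome 5, so fragments in their shared sequence may have been left out or divided.

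The adaptors differed little between the groups. Myd88, the adaptor of most Toll-like receptors, lies on the minus strand of chromosome 9 (119335934 to 119341411) and had 50.9, 51.9, 50.6, 44.2 and 52.5 CPM in controls 1 to 5 and 44.6, 50.1, 51.5, 47.1 and 48.2 CPM in KO 1 to 5. Control 4 and KO 1 were the lowest of their groups, and the groups overlapped, with a log2 fold change of -0.05 (SE 0.056, adjusted p = 0.831). Ticam1, the adaptor of Tlr3 and of the interferon arm of Tlr4, had 31.7, 33.2, 29.9, 36.1 and 31.1 CPM in controls 1 to 5 and 38.5, 30.4, 31.0, 29.3 and 30.03 CPM in KO 1 to 5. KO 1 and control 4 were highest here, and the log2 fold change was -0.03 (SE 0.078, adjusted p = 0.956). Myd88 overlaps Acaa1a on the opposite strand and Slc22a14 on its own, and since the strand setting of the counting is not given in the sources used here, fragments of overlapping genes may be shared. Of the 37 members 13 overlap another gene, 11 of them 1 on the opposite strand.

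Irak1, a kinase recruited by Myd88, was the highest of the 4 IRAK genes per length (23.0 ± 0.536 CPM per kb in control). It had 110.8, 111.0, 105.7, 108.6 and 106.0 CPM in controls 1 to 5 and 110.1, 104.7, 108.4, 106.6 and 111.6 CPM in KO 1 to 5. All 10 libraries lay between 104.7 and 111.6 CPM, and the log2 fold change was -0.0016 (95% interval -0.08 to 0.07, adjusted p = 0.997). Irak2 and Irak4, which signal with it, and Irak3, an inhibitor of the cascade, differed by 0.08, 0.03 and 0.11 on the log2 scale, all with an adjusted p of at least 0.531. Irak3 had a wider spread, from 34.7 to 51.4 CPM, with control 4 and KO 1 highest.

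Tab2, which ties the TAK1 kinase to ubiquitin chains, had 113.6, 113.9, 110.0, 121.8 and 108.2 CPM in controls 1 to 5 and 118.4, 121.3, 106.8, 118.6 and 118.6 CPM in KO 1 to 5. The groups overlapped, KO 3 was the lowest library and control 4 the highest, and the log2 fold change was 0.04 (SE 0.046, adjusted p = 0.830). Map3k7 (TAK1 itself), its partner Tab1 and Tbk1, the kinase of the interferon branch, had log2 fold changes of 0.02, 0.08 and 0.06. For Tab2 and these 3 genes the interval lay within ±0.25.

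The IκB kinase complex consists of the catalytic subunits Chuk and Ikbkb and the scaffold Ikbkg (NEMO), and all 3 had intervals within ±0.25. Chuk was highest per length (12.2 ± 0.760 CPM per kb in control) and had 66.7, 61.1, 57.8, 65.5 and 59.2 CPM in controls 1 to 5 and 65.0, 66.2, 66.6, 64.2 and 62.4 CPM in KO 1 to 5. KO libraries fell inside the control range, with a log2 fold change of 0.07 (SE 0.047, adjusted p = 0.675). Ikbkg had 59.8, 60.4, 57.9, 61.7 and 58.0 CPM in controls 1 to 5 and 60.1, 60.6, 53.9, 59.0 and 59.4 CPM in KO 1 to 5. Apart from KO 3, the libraries lay between 57.9 and 61.7 CPM, and the log2 fold change was -0.02 (SE 0.042, adjusted p = 0.911). Ikbkb had a log2 fold change of 0.02, and Ikbkg overlaps the oppositely oriented gene G6pdx.

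The genes of the 5 NF-κB subunits were all expressed and 0 passed the test. Rela, the transactivating subunit of the classical dimer on chromosome 19 (5637483 to 5648130, plus strand), was highest per length at 19.8 ± 0.692 CPM per kb in control and 19.8 ± 0.774 in KO cells. It had 60.2, 58.2, 61.4, 64.0 and 60.7 CPM in controls 1 to 5 and 64.8, 58.6, 61.1, 60.2 and 59.6 CPM in KO 1 to 5. The highest library of each group was control 4 and KO 1, and the log2 fold change was -0.00032 (95% interval -0.09 to 0.09, adjusted p = 0.999). Nfkb1, the precursor of the other classical subunit, and Nfkb2 and Relb, which form the dimer of the alternative branch, had log2 fold changes of -0.0029, -0.0097 and -0.06. Rel, a subunit prominent in blood cells, was lowest per length (0.642 ± 0.108 CPM per kb in control) with a log2 fold change of 0.06.

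Nfkbia, the inhibitor IκBα that NF-κB induces as negative feedback and whose promoter carries the match shown above, was the highest member per length after Saa3 (27.6 ± 1.01 CPM per kb in control). It lies on the minus strand of chromosome 12 (55489410 to 55492647) and had 43.3, 43.3, 44.4, 47.1 and 43.5 CPM in controls 1 to 5 and 51.9, 44.0, 41.7, 38.7 and 41.3 CPM in KO 1 to 5. KO 1 was the highest and KO 4 the lowest of the 10 libraries, so the control values fell inside the KO range. The log2 fold change was -0.03 (SE 0.070, 95% interval -0.18 to 0.12, adjusted p = 0.942). Nfkbie and Nfkbiz, an inhibitor and a nuclear cofactor of NF-κB, were less abundant and differed by -0.11 and 0.08 on the log2 scale (adjusted p = 0.896 and 0.910).

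**Figure D3:**
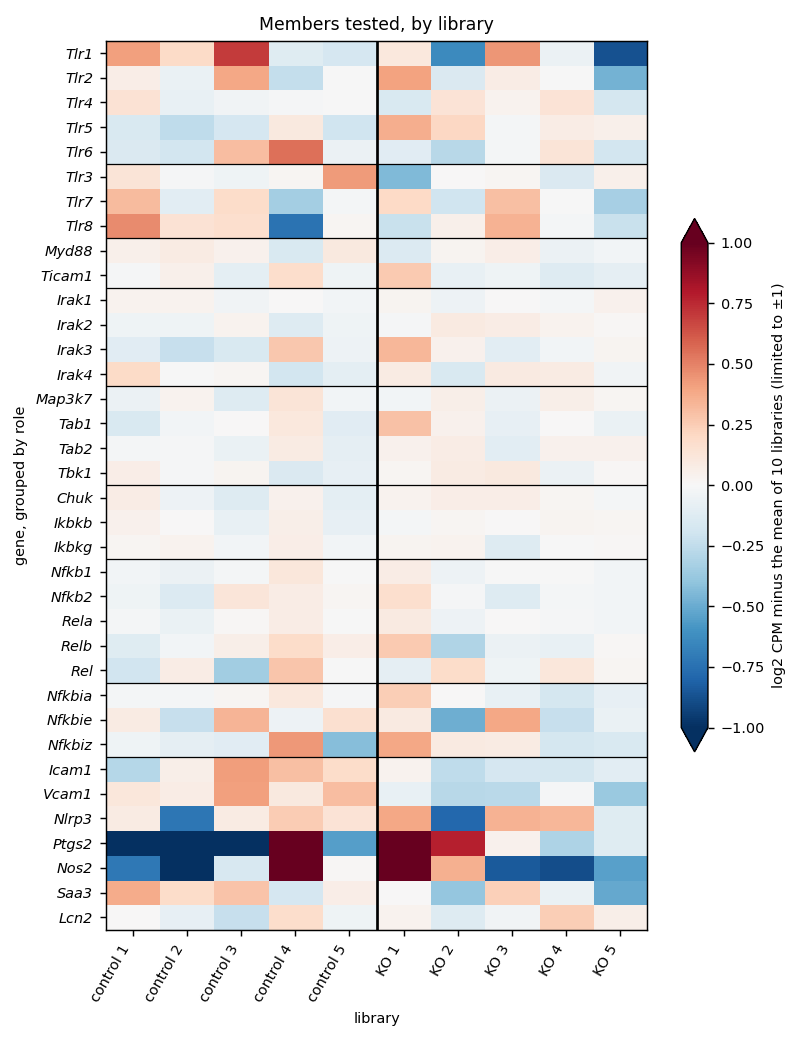
Each member tested (by role, top to bottom) in each library (left to right), as log2 CPM minus the mean of the 10 libraries, with colours limited to ±1. Irak1, the IκB kinase genes, Nfkb1 and Rela are pale throughout, Vcam1 changes colour at the line between the groups, and Ptgs2 and Nos2 are darkest in control 4 and KO 1.

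The member that passed was 1 of the 7 target genes, and Ptgs2 and Nos2 among them had the widest spread between libraries of all members tested. Vcam1, an adhesion molecule for leukocytes on endothelial and stromal cells, lies on the minus strand of chromosome 3 (116109949 to 116129688) and had 23.8, 23.2, 29.3, 23.5 and 27.2 CPM in controls 1 to 5 and 20.9, 18.1, 18.3, 21.8 and 17.0 CPM in KO 1 to 5. The highest KO library was below the lowest control, which was true of 2.66% of all genes tested and of 1 of 36 members. The mean was 25.4 ± 2.71 CPM in control and 19.2 ± 2.03 CPM in KO (SD, n = 5), and Vcam1 fell by 24.3%, with a log2 fold change of -0.40 (SE 0.087, 95% interval -0.59 to -0.21, adjusted p = 0.0293). The 2-sided exact permutation test gave p = 0.00794, the smallest that 5 libraries against 5 allow, which follows from the lack of overlap. DESeq2, which called 2.52% of all genes lower, gave an adjusted p of 0.0019 and called Vcam1 alone among the members. The call was lost when any of 5 libraries was left out, with adjusted p of 0.0770 without control 3, 0.0891 without control 5, 0.0979 without KO 2, 0.0789 without KO 3 and 0.0856 without KO 5, while the log2 fold change stayed between -0.45 and -0.34. Summed endothelial markers were 204 to 251 CPM in control and 89.9 to 130.4 CPM in KO libraries, 15 of 18 of them lower, and progenitor markers 4 of 9 lower. Their part in the Vcam1 result was not tested. Vcam1 overlaps the gene model Gm43109 on the opposite strand.

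Icam1, an adhesion molecule of endothelial cells, leukocytes and other cells, lies on the plus strand of chromosome 9 (21015985 to 21028817) and had 12.1, 15.4, 19.7, 18.1 and 16.7 CPM in controls 1 to 5 and 15.1, 12.3, 13.1, 13.0 and 13.7 CPM in KO 1 to 5. Control 1 was the lowest library of all, and the other 4 controls were above every KO library. Icam1 had a log2 fold change of -0.29 (SE 0.112, 95% interval -0.53 to -0.04), with an unadjusted p of 0.0242 and an adjusted p of 0.304, and the exact permutation test gave p = 0.0873. Icam1 therefore did not pass, and the part of the lower endothelial markers in its values was not tested. Without control 4 and KO 1 together the log2 fold change was -0.29 (adjusted p = 0.253). Icam1 overlaps the gene model Gm47079 on the opposite strand.

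Saa3, an acute-phase serum amyloid A made by adipocytes and macrophages, was the most abundant member per length, at 164 ± 23.0 CPM per kb in control and 135 ± 28.3 in KO cells (SD, n = 5). It lies on chromosome 7 (46711998 to 46715700, minus strand) and had 495.3, 434.9, 467.8, 341.7 and 401.4 CPM in controls 1 to 5 and 384.7, 293.3, 452.1, 365.6 and 268.4 CPM in KO 1 to 5. KO 1, KO 3 and KO 4 lay inside the control range, and KO 2 and KO 5 below it. KO 5, KO 2 and control 4 were also lowest in summed macrophage markers, whose part in the Saa3 values was not tested. Saa3 had a log2 fold change of -0.28 (SE 0.134, 95% interval -0.57 to 0.01, adjusted p = 0.448). Lcn2 (lipocalin), an iron-scavenging acute-phase protein, averaged 48.5 ± 4.98 CPM in control cells against 51.0 ± 5.01 CPM in KO cells (SD, n = 5), a log2 fold change of 0.07 (adjusted p = 0.831).

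Ptgs2 and Nos2, the inducible enzymes of prostaglandin and nitric oxide synthesis, were low in most libraries and high in control 4 and KO 1. Ptgs2, on the plus strand of chromosome 1 (150100031 to 150108227), had 0.734, 0.675, 0.470, 8.95 and 1.18 CPM in controls 1 to 5 and 7.79, 3.12, 1.83, 1.42 and 1.63 CPM in KO 1 to 5. Control 4 was above every other library, KO 1 next, and the 4 remaining controls were below the 4 remaining KO libraries. Over all 10 libraries the log2 fold change was 0.41 (SE 0.757, 95% interval -1.23 to 2.05, adjusted p = 0.914). Without control 4 alone it was 2.02 (adjusted p = 0.0705), without KO 1 alone -0.22, and without both 1.38, which passed (adjusted p = 0.0339). These were the highest Ptgs2 libraries of their groups, so leaving them out narrows the spread. That pass is no separate support for a difference. The exact permutation test on all 10 libraries gave p = 0.278.

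Nos2, on chromosome 11 (78920787 to 78960254, plus strand), had 0.577, 0.412, 0.894, 4.50 and 1.01 CPM in controls 1 to 5 and 3.82, 1.32, 0.524, 0.504 and 0.662 CPM in KO 1 to 5. The same libraries were high, and the others overlapped between the groups. The log2 fold change was -0.11 (SE 0.703, adjusted p = 0.981) with all libraries, 0.07 without both control 4 and KO 1, and -0.93 to 0.90 as single libraries were left out. Nlrp3, the sensor of an inflammasome that NF-κB primes, had 1.84, 1.01, 1.83, 2.08 and 1.90 CPM in controls 1 to 5 and 2.28, 0.966, 2.23, 2.20 and 1.58 CPM in KO 1 to 5. Control 2 and KO 2 were low, the rest overlapped, and the log2 fold change was 0.11 (SE 0.249, adjusted p = 0.937).

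**Figure D4:**
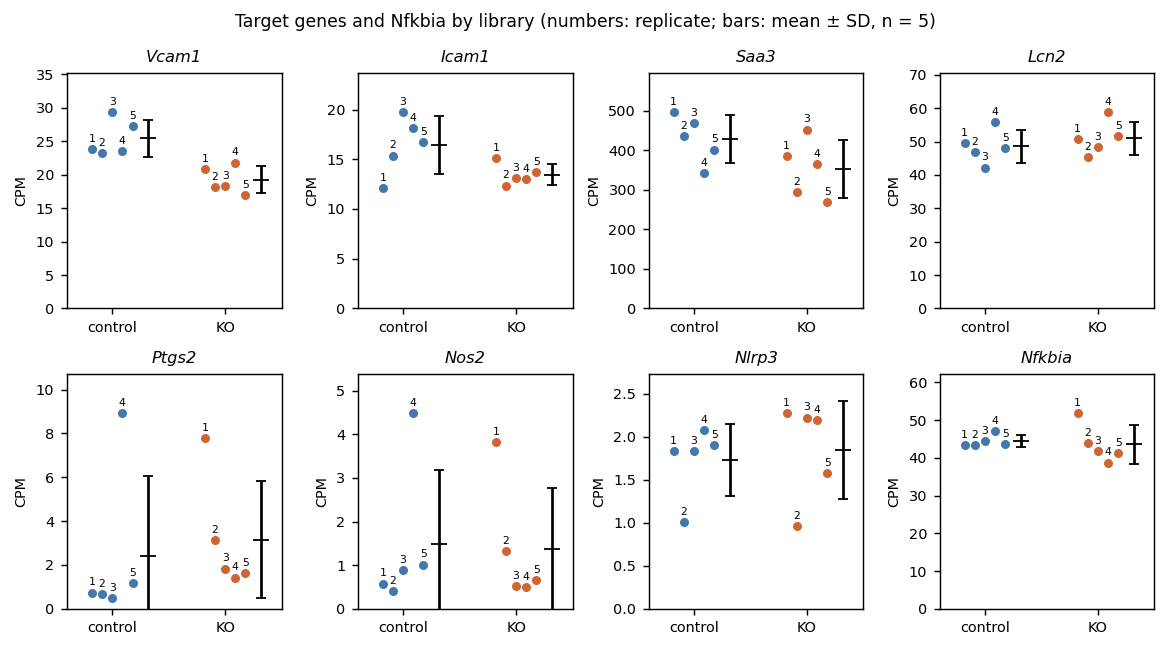
CPM of the 7 target genes and Nfkbia in each library (points, numbered by replicate), with bars at mean ± SD (n = 5) and axes that start at 0, below which bars are not drawn. The 5 KO values of Vcam1 (17.0 to 21.8) lie under all controls (23.2 to 29.3), and control 4 and KO 1 lie far above the other libraries for Ptgs2 and Nos2.

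Control 4 was the highest control and KO 1 the highest KO library for 12 of the 36 members tested (33.3%), against 2093 of all 14270 genes (14.7%). They were Tlr5, Ticam1, Irak3, Tab1, Nfkb1, Rela, Relb, Nfkbia, Nfkbiz, Nlrp3, Ptgs2 and Nos2. The labels give no batch or date that these libraries share, and no test was made of this count.

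A list of 76 other genes of the pathway, from co-receptors to targets, placed the members in context. Of these 63 could be tested. With edgeR 0 of the 63 were lower (against 1.86% of all genes) and 1 was higher (Mmp9, against 0.308%). At an unadjusted p under 0.05, 8 were lower (against 7.46%) and 4 were higher (against 4.43%), and their median log2 fold change was -0.01. DESeq2 called 1 lower (against 2.52% of all genes) and 2 higher (against 0.876%). With limma voom 2 were lower and 0 higher, against 350 lower and 106 higher over all genes tested. Cnpy4, a chaperone that supports the surface display of Tlr4 and that the study examined as a substrate of the Fam20c kinase, had 15.8, 15.7, 15.9, 14.2 and 16.7 CPM in controls 1 to 5 and 15.0, 13.4, 17.5, 14.8 and 15.6 CPM in KO 1 to 5. The groups overlapped, and the log2 fold change was -0.04 (95% interval -0.20 to 0.12, adjusted p = 0.914). These counts cover the whole gene, while the study reported changes of single Cnpy4 isoforms in visceral fat of obese mice. Cnpy3, a relative of Cnpy4 that folds several Toll-like receptors, differed by -0.12 on the log2 scale (95% interval -0.24 to 0.01, adjusted p = 0.465). The lipopolysaccharide co-receptors Cd14 and Ly96 had log2 fold changes of 0.05 (SE 0.204) and -0.01 (SE 0.089). The adaptors and ubiquitin ligases (10 tested), kinases and interferon regulatory factors (9), IκB proteins and negative regulators (10) and the linear ubiquitin complex (3) gave 0 calls with edgeR and with DESeq2, with unadjusted p under 0.05 for 2, 1, 1 and 0 of them.

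Mmp9, a matrix-degrading gelatinase on chromosome 2 (164940780 to 164955850, plus strand), was higher in KO. It had 9.70, 5.40, 18.1, 17.3 and 9.89 CPM in controls 1 to 5 and 52.6, 18.8, 35.2, 33.1 and 23.1 CPM in KO 1 to 5. The lowest KO library was just above the highest control, as for 1.31% of all genes tested, and the spread was wide in both groups. The mean was 12.1 ± 5.45 CPM in control and 32.6 ± 13.1 CPM in KO (SD, n = 5), a 2.71-fold rise with an interval from 1.67 to 4.41 (log2 fold change 1.44, SE 0.323, adjusted p = 0.0370). The exact permutation test gave p = 0.00794, which follows from the lack of overlap. The call was lost with limma voom (adjusted p = 0.0714), with robust dispersion estimates (adjusted p = 0.115), and without any of 7 libraries: control 1 (0.103), control 2 (0.0629), control 5 (0.109), KO 1 (0.0648), KO 3 (0.0763), KO 4 (0.0823) and KO 5 (0.0533). The log2 fold change stayed between 1.21 and 1.64 as each library was left out. Without control 4 and KO 1 together it was 1.38, which passed (adjusted p = 0.0234). KO 1 was the highest library for Mmp9, so leaving it out narrows the spread in KO. This pass is likewise no separate support for a difference.

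Other targets with large changes did not pass. The platelet and endothelial selectin Selp had 1.26, 1.27, 0.799, 0.677 and 1.23 CPM in controls 1 to 5 and 0.347, 0.527, 0.873, 0.550 and 0.407 CPM in KO 1 to 5. Only KO 3 reached into the control range, and the log2 fold change was -0.94 (SE 0.274, adjusted p = 0.126), with an adjusted p of 0.0321 by limma voom. The monocyte attractant Ccl2 had 5.24, 5.02, 8.23, 7.30 and 7.52 CPM in controls 1 to 5 and 4.96, 5.14, 3.45, 5.08 and 5.19 CPM in KO 1 to 5. Control 2 lay within the KO range, control 1 just above it and the other controls higher, with a log2 fold change of -0.48 (SE 0.160, adjusted p = 0.192). The negative regulator Sigirr and the signalling adaptor Traf1, both near 1 CPM or below, had log2 fold changes of -0.88 (adjusted p = 0.418) and -0.44 (adjusted p = 0.411). The fall in endothelial markers given above accompanied the lower values of Selp and Ccl2, and its part in them was not tested.

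**Figure D5:**
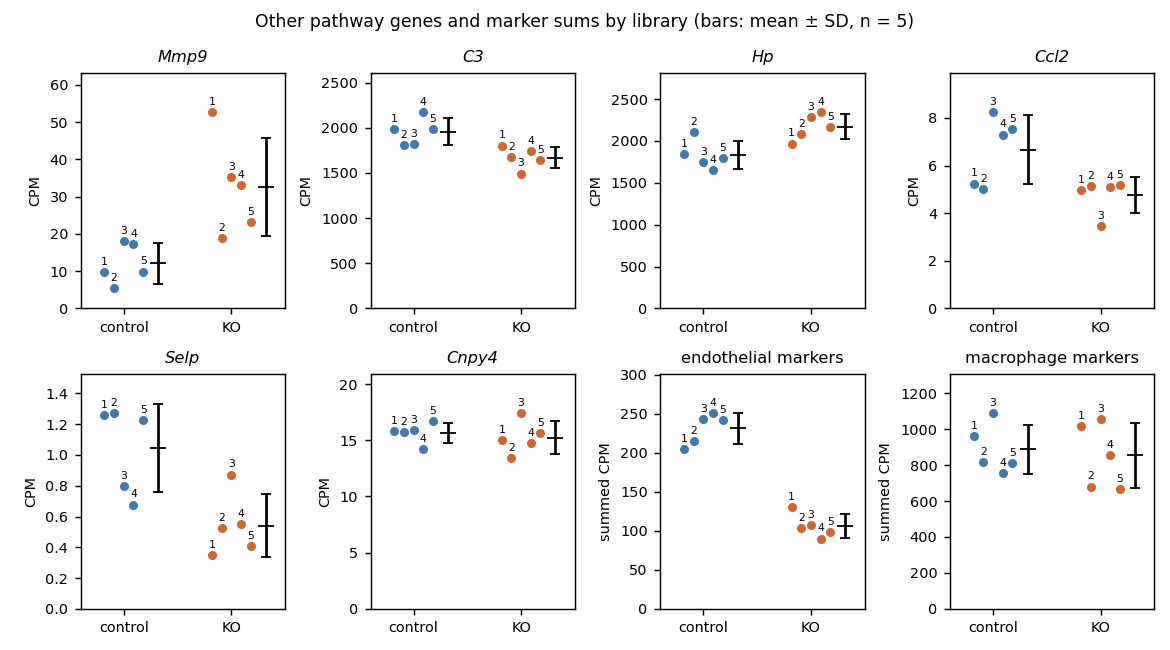
CPM by library (points, numbered by replicate; bars are mean ± SD, n = 5) of Mmp9, C3, Hp, Ccl2, Selp and Cnpy4, with the summed CPM of 18 endothelial and 16 macrophage markers. Mmp9 lies higher in KO (18.8 to 52.6 CPM) than in control (5.40 to 18.1), endothelial sums do not overlap, and Cnpy4 and macrophage sums do.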

How the data were processed

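RNA-seq covered 5 control (Fam20c-flox) and 5 KO (Fam20c-flox with Adipoq-Cre) libraries of primary adipocytes. The authors prepared libraries with SMARTer and Nextera XT kits, aligned the read pairs to GRCm38.p6 (STAR) and deposited the raw fragment counts that featureCounts gave for each gene, not normalized and not pooled. The strand setting is not given in the sources used here.

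From these counts, edgeR 4.0.16 in R 4.3.3 kept 14270 genes (filterByExpr, minimum count 10), applied TMM scaling and compared the genotypes by its quasi-likelihood test, unpaired, with p adjusted by Benjamini-Hochberg over all genes tested and a limit of 0.05. The SE is the log2 fold change over the square root of F. Log2 CPM used a prior count of 2. The biological coefficient of variation was 9.35%, and libraries of a group differed by more than sampling noise (lowest chi-square per degree of freedom 3.52). Exact permutation tests were 2-sided over all 252 assignments of the libraries. Positions and merged exon lengths came from GENCODE M21 (GRCm38), and since exons of all isoforms are merged, levels per kb are understated for genes with many isoforms. Promoters came from RefSeq (GRCm38.p6). The script was tested on simulated data.

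The members and gene lists were chosen with earlier results of these data known. Values in every library are given for members with an unadjusted or adjusted p under 0.05, members without overlap between groups, the highest member per length of each role, and members with a library that stands apart. Of the other pathway genes, those past the limit, Cnpy4, Cnpy3, Cd14, Ly96 and 5 with the largest changes at an unadjusted p under 0.05 are named. Alternatives were DESeq2 1.42.0, limma 3.58.1 (voom with quality weights), other size factors, other filters, a prior count of 0.5, a block for the replicate number, each library left out, and both control 4 and KO 1 left out. Robust dispersion estimates were added after the data were seen.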

Additional observations from a re-analysis of the deposited data

Results flagged for a closer look

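Within the groups of 5 libraries, 10 values of named members stood further from the nearest other library than Dixon's 95% limit allows, a gap above 0.71 of the group's range. This was checked in 76 groups, of which chance alone gives about 5%, or 3.8. Among the receptors and adaptors, Tlr5 was high in control 4 (12.0 CPM, other controls 9.41 to 10.1), Myd88 was low in control 4 (44.2 CPM, others 50.6 to 52.5) and Ticam1 was high in KO 1 (38.5 CPM, other KO libraries 29.3 to 31.0). Among the kinases, Tab2 and Ikbkg were low in KO 3, at 106.8 CPM (others 118.4 to 121.3) and 53.9 CPM (others 59.0 to 60.6).

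The other 5 values were those of target genes. Nlrp3 was low in control 2 (1.01 CPM, other controls 1.83 to 2.08). Ptgs2 was high in control 4 (8.95 CPM, others 0.470 to 1.18) and in KO 1 (7.79 CPM, others 1.42 to 3.12). Nos2 was high in the same libraries, at 4.50 CPM in control 4 (others 0.412 to 1.01) and 3.82 CPM in KO 1 (others 0.504 to 1.32). The cause of these values was not tested.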

How the results depend on the processing

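Genes past the limit were counted under each alternative. The count of members was 1 lower and 0 higher, and it changed to 0 lower under the replicate block and to 1 higher (Ptgs2, log2 fold change 1.38) without control 4 and KO 1 together. As each library was left out it was 0 to 1 lower and 0 higher. For the 76 other pathway genes (0 lower, 1 higher) DESeq2 gave 1 lower and 2 higher, limma voom 2 lower and 0 higher, library totals as scaling 1 lower, and robust dispersion estimates, chosen after seeing the data, 0 higher. Leaving out each library gave 0 to 1 higher. Over all genes 265 were lower and 44 higher. The higher count was 125 with DESeq2, 106 with limma voom, 21 with the block and 145 without control 4 and KO 1. As each library was left out the counts ran from 164 to 323 lower and from 19 to 119 higher, with the most higher calls without control 4. Fam20c passed in all 10 of these fits.

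The replicate numbers are shared by the groups, but correlations of same-numbered libraries were -0.173, 0.0892, 0.263, -0.251 and 0.0337, and only number 3 correlated best with itself, so the numbers were not taken as pairs. With the number as a block, Vcam1 did not pass (adjusted p = 0.0962, log2 fold change -0.40), and Mmp9 had one of 0.0098.

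Genes near no change altered sign, and so did genes with wide intervals such as Ptgs2 and Nos2. Irak1 was 0.0019 with DESeq2, 0.0024 with median-of-ratios factors and 0.00067 without the filter. Rela was 0.0038, 0.0036 and 0.0021 under these and 0.0032 with limma voom. Tlr4 was -0.0013 with limma voom, -0.0047 with upper-quartile factors, -0.021 with library totals, -0.0036 with the stricter filter and -0.0034 with the block. Nos2 was 0.25 with limma voom and 0.071 without control 4 and KO 1, where Cd14 was -0.057. As single libraries were left out, log2 fold changes ran from -0.035 to 0.041 for Tlr4, -0.088 to 0.074 for Tlr7, -0.012 to 0.017 for Irak1, -0.021 to 0.021 for Rela, -0.095 to 0.012 for Nfkbia, -0.099 to 0.018 for Ticam1, -0.033 to 0.0077 for Ikbkg, -0.050 to 0.28 for Nlrp3, -0.22 to 2.02 for Ptgs2, -0.93 to 0.90 for Nos2, -0.092 to 0.0097 for Cnpy4, -0.099 to 0.16 for Cd14 and -0.052 to 0.039 for Ly96. The causes were not tested. At these depths Tlr9, with at most 11 counts in a library, could not be tested, and Tlr1, Nlrp3, Sigirr and Selp rest on few counts. The stricter filter gave no value for genes with too few counts.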

Other observations

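Among targets of the pathway, 2 abundant acute-phase and complement genes had fold changes of opposite sign without passing edgeR's limit, and both were chosen for mention after their values were seen. C3, the central complement component and a product of adipocytes, had 1989.0, 1812.3, 1814.9, 2169.7 and 1986.5 CPM in controls 1 to 5 and 1802.3, 1674.8, 1493.4, 1738.3 and 1644.2 CPM in KO 1 to 5. All KO libraries were below all controls, as for 2.66% of all genes tested, and the gap was narrow (highest KO 1802.3, lowest control 1812.3 CPM). C3 had a log2 fold change of -0.23 (SE 0.063, adjusted p = 0.103 with edgeR and 0.0242 with DESeq2). Hp (haptoglobin), a haemoglobin-binding acute-phase protein of fat and liver, had 1844.8, 2103.5, 1745.3, 1653.1 and 1798.0 CPM in controls 1 to 5 and 1968.7, 2081.8, 2284.7, 2339.9 and 2169.3 CPM in KO 1 to 5. Control 2 lay within the KO range, and the log2 fold change was 0.25 (SE 0.068, adjusted p = 0.102 with edgeR and 0.0226 with DESeq2).

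Tlr13, a receptor of bacterial ribosomal RNA, was at 4.30 ± 0.699 CPM per kb in control and 4.49 ± 0.907 in KO cells (SD, n = 5), between Tlr4 and Tlr7 in level. The cytokine genes Il1b and Tnf had 0 to 1 and 0 to 15 counts in a library and were not tested, and Il6 had 8 to 23 counts with a log2 fold change of 0.23 (adjusted p = 0.847).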
